A study of Sorghum bicolor with 12 samples.

Results

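The transcripts described here belong to 3 genes of Sorghum bicolor that the drought list of the study names as late embryogenesis abundant (LEA) genes, and they are 4 of the 28587 transcripts on the array. They were chosen by identifier, with their levels in all groups already known: Sb01g021320.1, Sb03g032380.1, Sb03g032380.2 and Sb09g027110.1. By the naming of this annotation the genes lie on chromosomes 1, 3 and 9. All 4 read higher in drought than in watered control leaves. Sb01g021320.1 and Sb03g032380.1 were still dim in drought, with means above 26.6% and 30.8% of transcripts. The 4 were picked because heat on top of drought left them at different levels. Every difference between groups was thus known when they were chosen, and their values are given as a description with no test.

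LEA proteins are mostly hydrophilic proteins that build up in seeds as they dry and in leaves that lose water. Many of them have little fixed structure in solution, and in the test tube several protect enzymes or membranes against drying. Many LEA genes answer to abscisic acid (ABA), the hormone of water shortage, through transcription factors that bind ABA-responsive elements in their promoters.

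Seedlings of the R16 variety, labelled as 14 days after sowing, were kept in 4 groups. In the methods of the study day 14 is when water was first withheld, so the leaves were taken later than that. Control plants were watered and held at 28°C, and heat plants were watered and held at 50°C. Drought plants were left without water for 3 days and held at 28°C, and combined-stress plants were left without water for 3 days and held at 50°C. The incubation lasted 3 h and, by the methods of the study, was in the dark. Each array, 3 to a group, was a 1-colour Agilent array of RNA from the youngest 3 leaves, with the plants of a treatment pooled, and the methods of the study call the 3 arrays of a group biological replicates. The p-values below measure the spread between these pools and not between single plants. In pooled leaf RNA, fewer cells of a type and less RNA per cell cannot be told apart.

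Each value below is the log2 of the spot's background-corrected signal minus the 75th percentile of its array, so 0 stands for that percentile. A spot counts as detected when the scanner software set it well above background with no outlier flag. Where the dimmer group was not detected on all of its arrays, a fold is a bound written as at least N-fold. For the dimmer group, the bound takes on each array whichever is higher, the probe's own signal or the lowest signal well above background, and averages over the 3 arrays. Each slide carried 1 array of every group, and arrays of the same replicate number shared a slide, so that differences within a replicate are differences within a slide. The combined-stress arrays were dimmer, with a median signal of 222 to 298 against 365 to 542 on the other 9 arrays. Their lowest signal well above background lay at -6.47 to -6.17, against -7.50 to -6.66 elsewhere. The leaf markers RCA, RBCS1A, LHCB6 and PSBR were detected on all 12 arrays, and the small heat shock protein HSP22 (Sb06g017850.1) averaged -5.79 in control, 6.54 in heat and 8.04 in combined stress. The leaf markers did not keep 1 level. From control to combined stress the mean of RCA went from -2.36 to 5.49 and that of PSBR from 4.18 to 7.06. RBCS1A went from 4.33 to 2.55 and LHCB6 from 2.04 to -0.18.

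The 4 transcripts had like patterns in drought and under heat, and parted in combined stress. All 4 were far above control in drought, and all 4 overlapped control under heat. In combined stress Sb09g027110.1 overlapped its drought values, while the means of the other 3 lay between those of heat and drought. For each of the 4 probes the 3 drought values lay above the 3 control values without overlap, as they did for 14.7% of the 22546 transcripts tested, which are those detected on all 3 arrays of 1 group or more. By the fold rule of the study's methods (over 2-fold in 1 direction in all 3 replicates, and detected on all 3 arrays of 1 of the groups), 4 of the members were up in drought, 0 under heat and 2 under both stresses, against 3.38%, 9.61% and 10.5% of the 28587 transcripts. The choice of members used these contrasts, so nothing is read from these counts. In combined stress Sb01g021320.1 and Sb03g032380.1 were detected on 1 and 2 arrays, and in control on none. The fold rule could thus not count them there, whatever their fold.

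**Figure D1:**
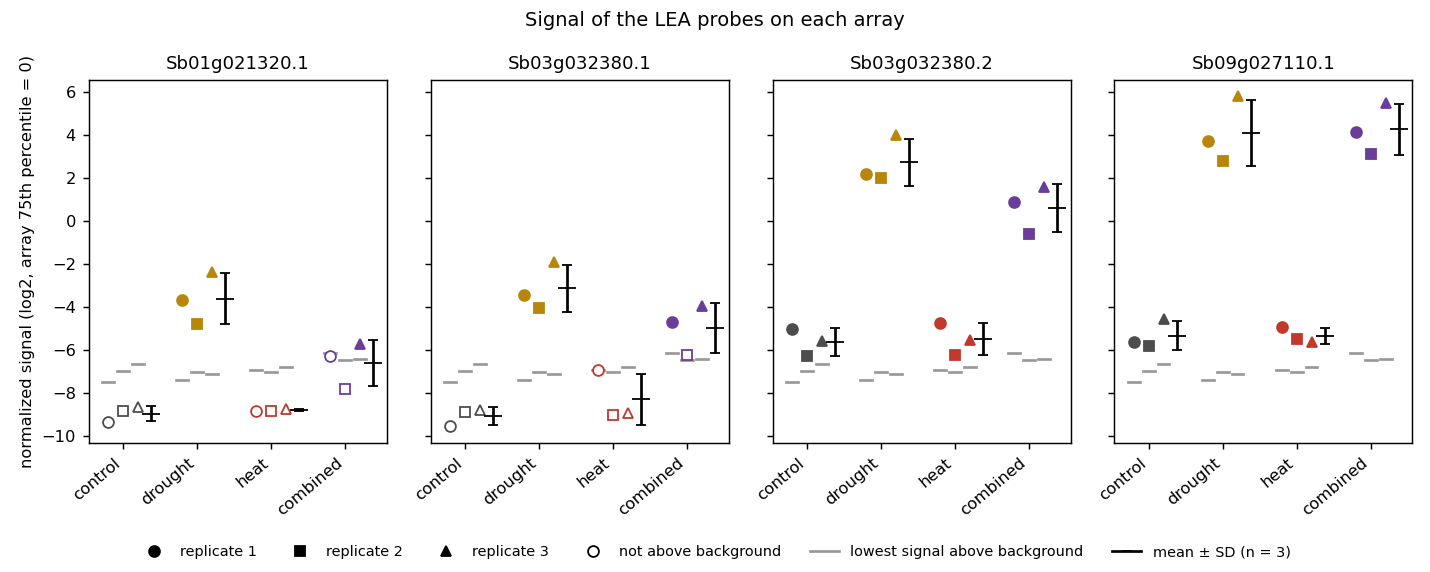
Normalized log2 signal (array 75th percentile at 0) of each of the 4 probes on each of the 12 arrays, by group, with the mean and SD of the 3 arrays and the lowest signal well above background of each array in grey. Open symbols were not well above background. Sb09g027110.1 sits at 2.79 to 5.78 in drought and 3.11 to 5.47 in combined stress, while Sb03g032380.2 drops from 1.98 to 3.97 in drought to -0.62 to 1.55 in combined stress.

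Sb01g021320.1, annotated as a putative LEA protein, had the lowest value of combined stress minus drought among the members on this scale, a place that went to Sb03g032380.2 (-2.08 against -0.96) with the normexp background correction, which lifts dim spots. Its probe read -3.70, -4.79 and -2.39 on the 3 drought arrays. The control arrays read -9.38, -8.85 and -8.68 and the heat arrays -8.85, -8.85 and -8.77, and none of these 6 was detected. The drought values were therefore at least 10.8-fold above control, and every drought array stood clear of the other groups.

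On the combined-stress arrays this probe read -6.30, -7.84 and -5.74, and only the array of replicate 3 was detected. Each of them was lower than the drought array of its own slide, by differences of -2.60, -3.05 and -3.35, with a mean of -3.00 ± 0.38 (SD, n = 3). Against the limit of detection of the combined-stress arrays, drought was at least 5.65-fold higher. The higher limit of these dimmer arrays moves with the missing detections, and its part in them was not tested. Since only replicate 3 was detected in combined stress, no minimum rise over control is given.

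Sb03g032380.1, also annotated as a putative LEA protein, had a smaller difference. The drought arrays read -3.44, -4.04 and -1.92, and the control arrays -9.57, -8.91 and -8.81. No control array was detected, and drought was at least 15.1-fold above control.

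In combined stress the probe read -4.71, -6.26 and -3.97 and was detected on replicates 1 and 3. The difference from drought was -1.27, -2.21 and -2.05 within the slides, a mean of -1.84 ± 0.50 (SD, n = 3). All 3 slides showed the lower value, yet the groups overlapped, because the highest combined-stress array exceeded the lowest drought array. Combined stress was at least 4.21-fold above control, a bound that counts the undetected reading of replicate 2.

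The heat arrays of Sb03g032380.1 did not match each other. Replicate 1 read -6.93, while replicates 2 and 3 read -9.05 and -8.94, and none was called well above background. The mean difference of heat from control, 0.79 ± 1.60 (SD, n = 3), was set by that 1 array and was -0.14 without replicate 1. The same heat array stood apart for another dim LEA transcript, Sb04g009130.1, at -6.72 against -9.24 and -9.09, and it had 84.4% of its spots well above background against 76.7% and 78.4% on the other heat arrays. The part of that array's background in these values was not tested.

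Sb03g032380.2 is another transcript of the gene of Sb03g032380.1, with a probe of its own and no annotation in the drought list. It was detected on all 12 arrays, so its differences are measured and not bounds. The control arrays read -5.03, -6.29 and -5.61, and the heat arrays -4.75, -6.25 and -5.56. These 2 groups overlapped, at a difference of 0.12 ± 0.13 (SD, n = 3).

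The drought arrays of Sb03g032380.2 read 2.17, 1.98 and 3.97, which is 8.35 ± 1.20 above control or 326-fold, rank 17 from the top of 22546. The combined-stress arrays read 0.88, -0.62 and 1.55, which is 6.25 ± 0.80 above control or 75.9-fold, rank 175. The 2 unwatered groups did not overlap, with a difference of -2.10 ± 0.71 (SD, n = 3). Of the 22546 transcripts tested, 18.9% were lower in combined stress than in drought without overlap.

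Between watered plants at 50°C and 28°C this transcript differed by 0.27, 0.04 and 0.06 within the slides, and between unwatered plants by -1.29, -2.60 and -2.43. The combined-stress signal was 41.0%, 16.5% and 18.6% of that of the drought array on the same slide. Both probes of the gene moved the same way between drought and combined stress, and their differences, -1.84 and -2.10, were closer to each other than the SD of either. The probes are not independent readings of the gene, since they stand for transcripts of 1 locus and were hybridized on the same arrays.

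Sb09g027110.1, a putative LEA protein, was the member with like levels in both unwatered groups. Its control arrays read -5.66, -5.81 and -4.56 and its heat arrays -4.95, -5.49 and -5.67, all of them detected. The heat and control values overlapped, with a mean difference of -0.02 ± 0.96 (SD, n = 3).

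The drought arrays of Sb09g027110.1 read 3.69, 2.79 and 5.78 and the combined-stress arrays 4.14, 3.11 and 5.47. Drought was 9.43 ± 0.87 above control, a 689-fold difference and rank 6 from the top of the 22546 transcripts. Combined stress was 766-fold above control. The 2 unwatered groups overlapped almost fully, at a difference of 0.15 ± 0.41 (SD, n = 3), and the slides did not share a sign, with 0.45, 0.32 and -0.31.

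Set against heat, the other 50°C group, combined stress was 9.61 ± 1.35 higher for Sb09g027110.1, the highest of the 22546 transcripts. The same difference was 6.12 for Sb03g032380.2, rank 20. For Sb03g032380.1 combined stress was at least 3.84-fold above heat, counting its undetected reading on replicate 2. For Sb01g021320.1 no minimum is given. All 4 read above their heat values in combined stress without overlap, as did 14.4% of the transcripts tested. For Sb01g021320.1 no heat array and only 1 combined-stress array was detected, so that most of its readings in this comparison are background.

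A second transcript of the same gene, Sb09g027110.2, was taken for its locus. It follows the member so closely that the choice of Sb09g027110.1 fixed its levels too, and they are given with no test. It read 3.58, 2.66 and 5.76 in drought and 3.96, 2.99 and 5.21 in combined stress. These groups overlapped, with a difference of 0.05 ± 0.52 (SD, n = 3).

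For Sb09g027110.2 the difference of heat from control was 0.16 ± 1.05 (SD, n = 3). Its signs differed between slides, at 1.12, 0.32 and -0.97, as they did for Sb09g027110.1. The 2 probes of this gene followed each other closely, with a root mean square difference of 0.11 over the 12 arrays after each was centred on its own mean. The probes may bind much the same RNA, and the array does not separate the transcripts of the gene.

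**Figure D2:**
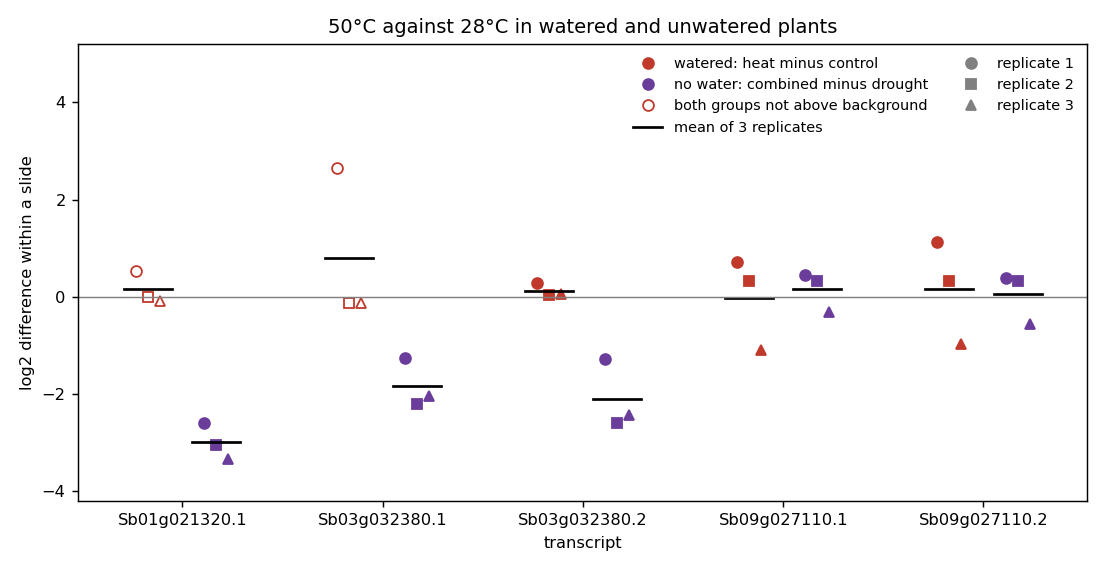
Log2 difference between plants at 50°C and at 28°C within each slide, in watered plants (heat minus control, red) and unwatered plants (combined stress minus drought, purple), for the 4 transcripts and Sb09g027110.2. Bars are means of 3 replicates and open symbols mark pairs in which neither group was well above background. The purple points of Sb01g021320.1, Sb03g032380.1 and Sb03g032380.2 all lie below 0, from -3.35 to -1.27, and those of both Sb09g027110 transcripts lie on both sides of 0.

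The order of the groups was the same for 3 of the members. In Sb01g021320.1 and Sb03g032380.2 drought was highest, combined stress came next without overlap, and heat and control followed and overlapped each other. Below its drought arrays, Sb01g021320.1 was detected on 1 array alone. In Sb03g032380.1 the order of the means was the same, with overlap between drought and combined stress and between heat and control. In Sb09g027110.1 the means of combined stress and drought were 4.24 ± 1.18 and 4.09 ± 1.53, and those of control and heat -5.34 ± 0.68 and -5.37 ± 0.37, so that the levels formed 2 overlapping pairs.

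Combined stress was also set against the sum of both single treatments on the log2 scale, as combined minus heat minus drought plus control. For Sb01g021320.1 this was -3.15 ± 0.10 (SD, n = 3), for Sb03g032380.1 -2.63 ± 1.11, for Sb03g032380.2 -2.23 ± 0.58 and for Sb09g027110.1 0.18 ± 0.55. The median of all 22546 transcripts was 0.07. Heat and control were both under the limit of detection for Sb01g021320.1 and Sb03g032380.1, so the heat and control parts of these values come from background readings. For Sb03g032380.1 that part was the 0.79 of heat minus control, which rested on 1 array.

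Some choices of processing moved these values. With the normexp background correction Sb01g021320.1 and Sb03g032380.1 differed between combined stress and drought by -0.96 and -0.86. Heat minus control became 1.96 for Sb01g021320.1, 1.67 for Sb03g032380.1, 1.31 for Sb03g032380.2 and 1.13 for Sb09g027110.1, so that all 4 members lay above 1. The median of all transcripts under heat then moved from -0.09 to 0.34. Drought and combined stress shared 0 positions on the slides, so no difference between them could be had within a position. With the position as a factor the differences of combined stress from drought were -2.02 for Sb01g021320.1, 0.19 for Sb03g032380.1, -1.64 for Sb03g032380.2 and 1.42 for Sb09g027110.1, so that Sb03g032380.1 no longer lay below drought. Under quantile normalization the small difference of Sb09g027110.1 turned to -0.46.

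The spread within the unwatered groups was shared by the members. In drought and in combined stress the array of replicate 2 was the lowest and that of replicate 3 the highest for 4 of the 4 transcripts. In drought, replicate 3 lay 1.21 to 1.69 above the group mean, and in combined stress 0.89 to 1.23 above it. In control, replicate 2 was lowest for 2 of the 4 and replicate 3 highest for 3 of the 4, and in heat replicate 2 was lowest for 3 and replicate 3 highest for 1. Sb01g021320.1 and Sb03g032380.1 were not detected in these groups, so their order there is background. The SD between drought arrays, 1.09 to 1.53 for the members, compares with a median of 0.34 over the 19103 transcripts that every array detected. Within the slides the difference between combined stress and drought was steadier than either level, with SDs of 0.38 to 0.71.

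The transcripts with the most similar profile were sought by the root mean square difference over the 12 arrays, each profile centred on its mean, among the 22546 transcripts. For Sb01g021320.1 these were Sb05g005880.1, a UDP-glucosyl transferase family protein (0.48), Sb03g006950.1, annotated as the xylanase RXF12 (0.68), and Sb02g004630.1, of unknown function (0.70). Sb03g032380.1 stood at rank 18 from it, with 0.82, the closest of the other members.

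For Sb03g032380.1 the closest were Sb03g041320.1, of unknown function (0.55), Sb05g005880.1 again (0.62) and Sb09g001860.1, a disease resistance-responsive family protein (0.66). For Sb03g032380.2 they were Sb09g021016.1, an AP2 domain transcription factor (0.58), Sb03g011090.1, annotated as the embryonic cell protein ECP63 (0.66), and Sb04g009130.1, a LEA domain protein (0.68). The last 2 are themselves LEA transcripts, and Sb03g032380.1 came only at rank 53 from Sb03g032380.2, with 1.41.

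For Sb09g027110.1, after Sb09g027110.2, the closest were Sb03g034280.1, annotated as NADP-malic enzyme 1 (0.59), and Sb03g001130.1, an AAA-type ATPase (0.69). Sb01g021320.1 was the member least like it, with 3.10. Of the 6 pairs of members, Sb01g021320.1 and Sb03g032380.1 were the closest, and both lay under the limit of detection on all 3 control and all 3 heat arrays.

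**Figure D3:**
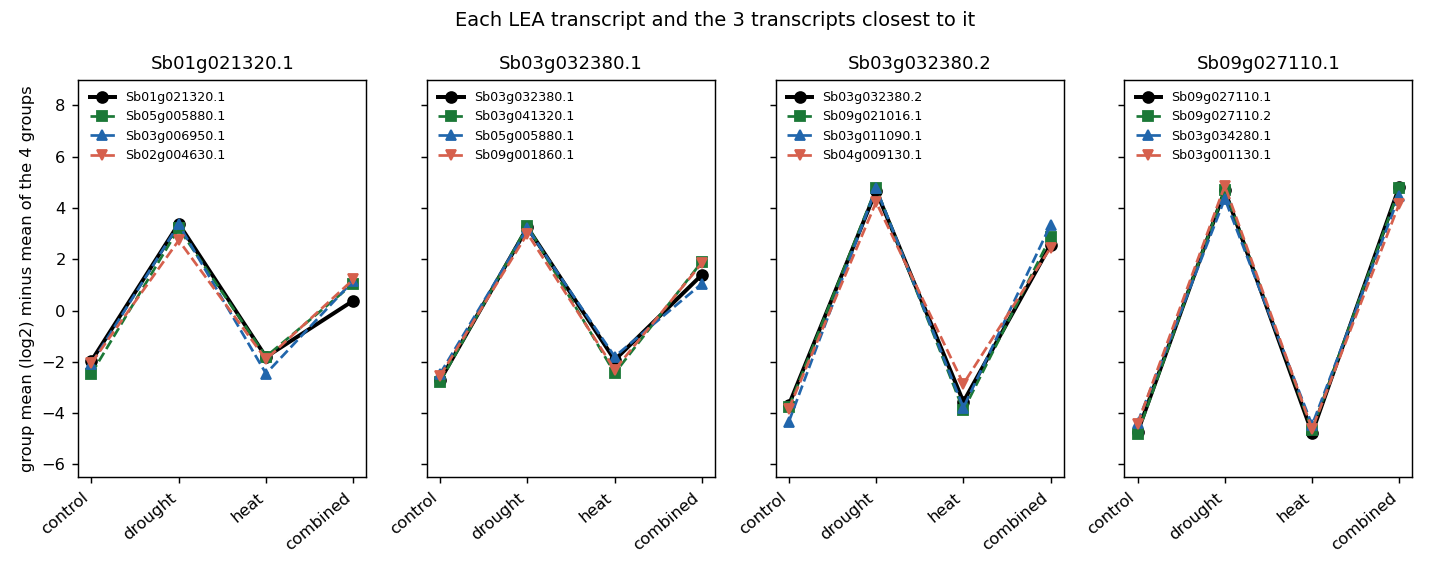
Group means (log2, minus the mean of the 4 groups) of each LEA transcript in black and of the 3 transcripts with the smallest root mean square difference from it, in colour. In the panels of Sb01g021320.1, Sb03g032380.1 and Sb03g032380.2 the combined-stress mean of the LEA transcript lies below its drought mean, and in that of Sb09g027110.1 the 2 means, 4.09 and 4.24 before centring, lie at the same height.

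The other LEA genes of the drought list show how common each behaviour was. These are 16 further transcripts annotated as LEA proteins, dehydrins (the LEA class of RAB18, XERO1 and ERD10), ECP63 or SAG21, all taken from the study's list of transcripts up in drought, so that their rise in drought was set by the choice. All 16 entered the limma fit over 12 arrays with a call at an adjusted p under 0.05 and a log2 difference beyond 1.

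Between combined stress and drought, 2 of the 16 rose, 0 fell and 14 did not pass the test, against 12.4% of all transcripts called higher and 9.86% called lower. At an unadjusted p under 0.05, 3 were higher and 2 lower. The median difference was 0.10, against -0.04 for all transcripts, and the values ran from -1.77 to 2.55, with 8 above and 8 below 0. The members' differences of -3.00, -2.10 and -1.84 lay below the lowest of the 16, and the 0.15 of Sb09g027110.1 near their median, but the members had been chosen on this difference. With quantile normalization 1 rose and 1 fell, with the replicate block 4 rose and 2 fell, and without replicate 1 none was called.

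The lowest of these LEA transcripts were Sb04g009130.1 (-1.77, limma adjusted p = 0.114), Sb03g011090.1, ECP63 (-1.43, 0.0647), and Sb01g046490.1 (-1.27, 0.221). Each was lower in combined stress on all 3 slides, and none was called. With the replicate block Sb03g011090.1 (limma adjusted p = 0.00788) and Sb03g001170.1 (-1.17, 0.0221), named here after its value was seen, were called lower, and Sb04g009130.1 (0.063) and Sb01g046490.1 (0.106) were not. Sb01g036790.1, also annotated as ECP63, went the other way, at 1.22 (0.16), and was called higher with the block (0.0392). Sb01g046490.1 had a drought level at least 455-fold above control. The LEA transcripts that rose were Sb02g028010.1, by 2.55 ± 1.99 (SD, n = 3; limma adjusted p = 0.0243), and the dehydrin ERD10, Sb04g032250.1, by 1.95 ± 0.73 (0.0124). Under quantile normalization ERD10 stood at 0.68 and was not called (adjusted p = 0.359), and without replicate 2 Sb02g028010.1 stood at 1.60 and was not called (0.078). Both lost their call without replicate 1 and with the array position as a factor. Sb10g000930.1, a LEA group 1 protein, came next at 1.67 (0.0874; 0.0118 with the block).

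Under heat alone 8 of the 16 rose and 0 fell (0 lower at an unadjusted p under 0.05), with a median of 1.40 against -0.09 for all transcripts. Among all transcripts, 14.8% were called higher and 14.6% lower. The 16 were taken for standing above these same control arrays in drought, a choice that favours values above 0 here. Without replicate 1, 4 were called. The highest were ERD10 (4.74 ± 0.68, SD, n = 3; limma adjusted p = 7.4e-05), Sb02g028010.1 (4.01 ± 1.07, 0.00188) and SAG21, Sb03g012950.1 (3.39 ± 0.38, 0.00043). The members' heat differences were between -0.02 and 0.79, and the highest of these rested on 1 array. The members had been chosen with these values known, and nothing is read from the contrast.

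ERD10, which binds actin by its annotation, was bright in every group. Its arrays read 3.17, 2.09 and 3.31 in control, 6.76, 5.38 and 7.46 in drought, 7.56, 7.60 and 7.62 in heat, and 8.82, 8.0 and 8.63 in combined stress. All 3 stresses lay above control without overlap, and combined stress was its highest group, without overlap with any other. Its difference from the members was not tested.

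**Figure D4:**
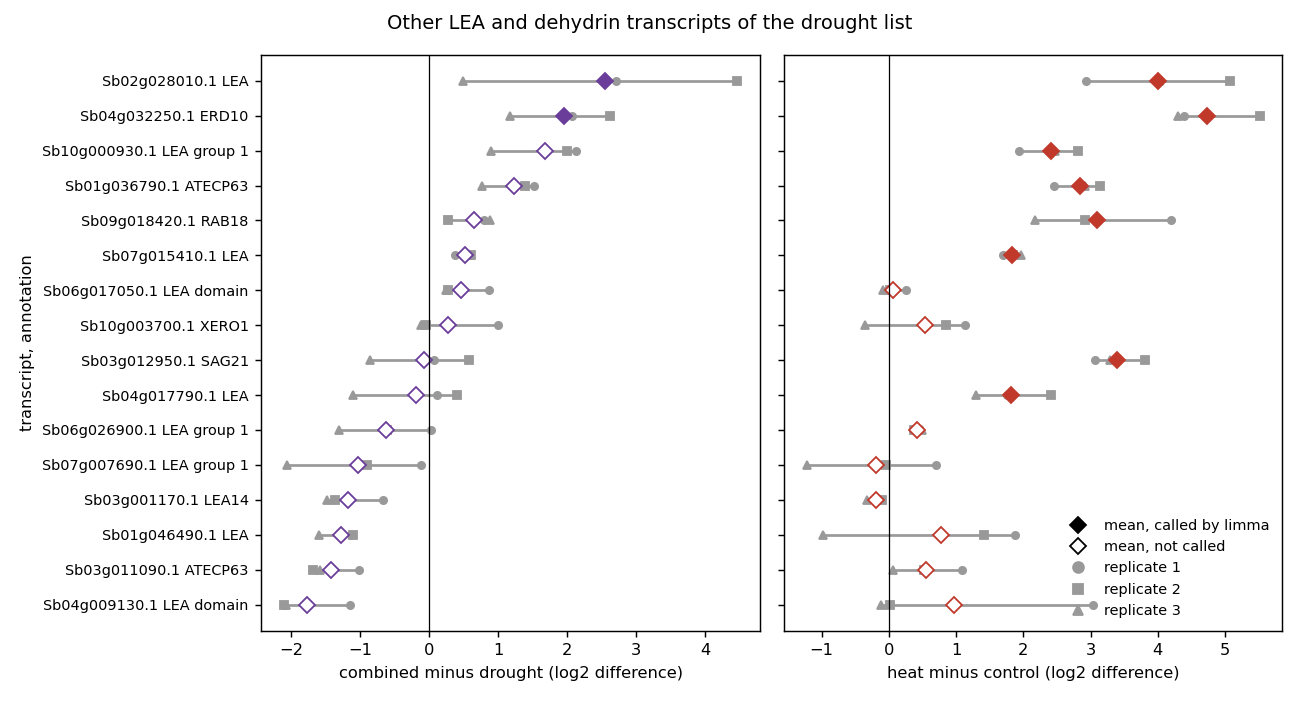
Log2 differences of the 16 other LEA and dehydrin transcripts, combined stress minus drought (left) and heat minus control (right), ordered by the left panel. Grey symbols are the replicates, and diamonds are means, filled where limma called the transcript. On the left 2 diamonds are filled, at 1.95 and 2.55, and on the right 8 are filled, from 1.82 to 4.74.

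ABA is the signal under which many LEA genes are transcribed, and 19 transcripts of ABA synthesis, breakdown and signalling were taken from the drought list by their annotation. Between combined stress and drought 3 rose and 4 fell, against 12.4% and 9.86% of all transcripts, with a median of -0.02 and a range from -2.50 to 3.37. Under heat alone 10 rose and 1, CYP707A1, fell, against 14.8% and 14.6% of all transcripts, with a median of 1.99. Both lists were taken for a rise in drought, and the combined minus drought difference shares the drought arrays with that choice. The heat minus control difference shares its control arrays with it, which favours values above 0.

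Some PP2C phosphatases are negative regulators of ABA signalling, and for several on the list the annotation names the PP2C family alone. A transcript annotated as PP2CA, Sb03g029890.1, fell between drought and combined stress by 2.50 ± 0.44 (SD, n = 3; limma adjusted p = 0.0132), from -0.82, -2.13 and -0.01 to -3.00, -4.45 and -3.01. The groups did not overlap. It was not detected on any control or heat array, as Sb01g021320.1 and Sb03g032380.1 were not. Sb09g029080.1, also annotated as PP2CA, differed by -0.24 between combined stress and drought and was not called (limma adjusted p = 0.762). Another PP2C, Sb09g022410.1, rose by 2.99 ± 0.67 (adjusted p = 0.000468) and rose under heat alone by 3.52 (0.000145). The PP2C Sb01g039890.1 rose under heat alone by 3.15 (0.000467).

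Of the 8'-hydroxylases that break down ABA, CYP707A4 (Sb02g026600.1) rose by 3.37 ± 2.26 between drought and combined stress (SD, n = 3; limma adjusted p = 0.00208) and by 7.57 ± 0.35 under heat alone (1.6e-05). CYP707A1 (Sb04g030660.1) fell by 1.82 ± 0.23 (0.0219), and under heat alone it fell by 2.14 ± 0.45 (0.00754), but with normexp its heat difference was -0.06 and not called (0.93). The heat call was also lost without replicate 1 and with the array position as a factor. The homeobox gene ATHB-7, induced by ABA in Arabidopsis, had 2 transcripts on the list, of which Sb06g024000.1 fell by 1.49 ± 1.27 (0.0199). The remaining calls were a HAB1 transcript, Sb09g026865.1, higher by 1.02, and the PP2C Sb06g026510.1, lower by 1.31, named here after their values were seen. Sb06g001720.1 and Sb09g026860.1, also annotated as HAB1, differed by 0.07 and 0.51 and were not called (limma adjusted p = 0.939 and 0.372). Without replicate 1 none of the ABA transcripts was called between combined stress and drought, and without replicate 3 the count of falls was 2 and Sb06g024000.1 stood at -0.83.

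**Figure D5:**
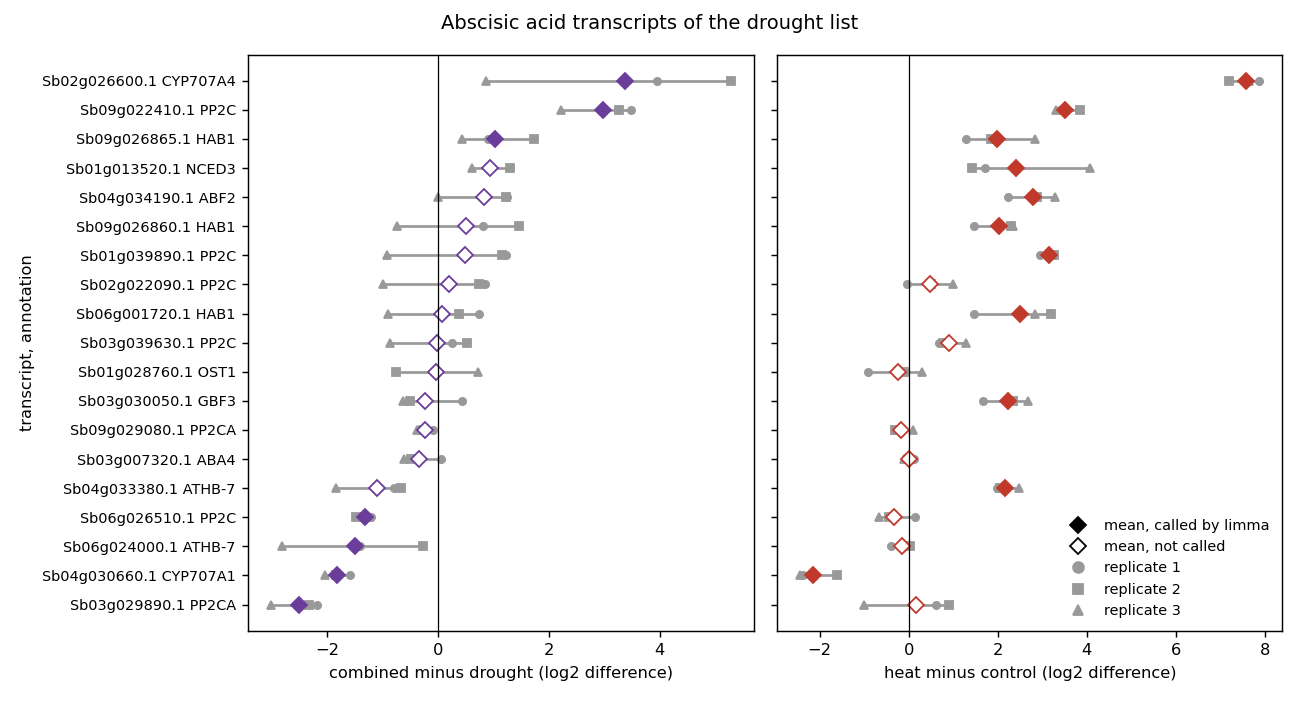
Log2 differences of the 19 ABA transcripts, combined stress minus drought (left) and heat minus control (right), drawn as for the LEA transcripts. The left panel has 4 filled diamonds below 0, down to -2.50 for the PP2CA transcript Sb03g029890.1, and 3 above, up to 3.37 for CYP707A4.

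Against the sum of the single treatments, the other LEA transcripts had a median of -1.54, with 15 of 16 below 0, and the ABA transcripts a median of -1.33, with 17 of 19 below 0. Limma called none of the 22546 transcripts for this difference, with 1275 higher and 1151 lower at an unadjusted p under 0.05, and 2 higher and 1 lower with the replicate block. At an unadjusted p under 0.05, 6 of the 16 LEA and 9 of the 19 ABA transcripts were lower. The difference shares its drought and control arrays with the choice of both lists. It takes away drought minus control, for which both lists were chosen, so values below 0 were favoured. Nothing is read from these counts. The values of Sb01g021320.1, Sb03g032380.1 and Sb03g032380.2, at -3.15, -2.63 and -2.23, stood within the range of the other LEA transcripts, -3.46 to 0.40, and so did the 0.18 of Sb09g027110.1.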

How the data were processed

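The authors scanned 12 one-dye arrays and deposited the spot intensities that Agilent Feature Extraction 10.7 wrote for each array, background-subtracted and not normalized between arrays. They also deposited normalized log2 values made with GeneSpring GX 11 under its standard scenario for 1-colour arrays, which served as an alternative. Each array had 45220 spots, of which 43803 were not controls, with 28785 probes for 28587 transcripts. From the processed intensities the log2 was taken, the array's 75th percentile over the 43803 spots was subtracted, and spots of a probe were averaged. For the 108 transcripts with several probes the brightest on average was used. Each member had 1 probe with 1 spot. No spot was saturated on the 12 arrays, so 0 spots were bounded from above. The number of arrays limits the precision.

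The array names transcripts by its own numbers. Sb identifiers were joined for 2959 transcripts by matching the folds per replicate in the study's tables to the deposited values within 2e-05 on the log2 scale, and annotations come from those tables, which were read in part. Those folds served for the join alone. The Sb03g032380.1 and Sb03g032380.2 probes carry the consecutive numbers 1963012 and 1963013.

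The members and the gene lists were chosen with earlier results of these data known. Differences were fitted with limma 3.58.1 (R 4.3.3) over all 12 arrays with 4 group means and no replicate block, for the 22546 transcripts with a detected spot on each of the 3 arrays of some group, with Benjamini-Hochberg adjustment over all of them. Numbers of the same replicate shared a slide, and over 19103 transcripts the deviations of same-numbered arrays correlated above 0.1 in 17 of 18 pairs (0.044 to 0.62). The fits were tested on simulated data. The transcripts named were the members, Sb09g027110.2, the 3 closest profiles, the 3 lowest and 3 highest LEA transcripts of combined stress minus drought, the 3 lowest ABA transcripts of it, and the 3 highest of each list under heat, with label checks. Alternatives were quantile and median scaling, the deposited values, normexp with an offset of 50 on the median signal and median background (the mean signal was not in the columns used), the block, the array position, 2 other detection filters, and leaving out each replicate. Sequences of the members are not given here, since the references used hold none under these identifiers. Other steps used python 3.11.15, numpy 2.4.6, pandas 2.3.3 and matplotlib 3.10.9.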

Additional observations from a re-analysis of the deposited data

Results flagged for a closer look

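The 4 members, Sb09g027110.2, the 16 other LEA and the 19 ABA transcripts were searched for opposite effects of heat in watered and unwatered plants. In 3 of them all slides moved the same way with heat in watered plants and the opposite way in unwatered plants. The rule itself did not test this difference, and the share among all transcripts was not counted. For Sb03g032380.2 heat minus control was 0.27, 0.04 and 0.06 on the 3 slides and combined stress minus drought was -1.29, -2.6 and -2.43. For Sb03g011090.1, annotated as the LEA protein ECP63 and the second closest profile to Sb03g032380.2, the values were 1.09, 0.51 and 0.07 against -1.01, -1.68 and -1.58. For ATHB-7, Sb04g033380.1, they were 1.99, 2.05 and 2.48 against -0.79, -0.67 and -1.84. The difference between the 2 effects was -1.98 for Sb03g011090.1 and -3.27 for Sb04g033380.1, and the limma fit called neither. Both were flagged here by these same values, and Sb03g032380.2 had been chosen on them. The differences are therefore a description with no test.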

How the results depend on the processing

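Of the 144 member differences recomputed under 9 alternatives, 123 moved by less than the SD between replicates. Leaving out 1 of 3 replicates cannot move a mean by a full SD, and the replicate block cannot move these means. Those alternatives stayed within the SD by construction, so the count says little of how stable the values are. The cause of the larger moves was not tested. With normexp, drought minus control became 2.11 for Sb01g021320.1, 2.34 for Sb03g032380.1, 6.98 for Sb03g032380.2 and 8.39 for Sb09g027110.1, and combined minus control became 1.15, 1.48, 4.90 and 8.52 in that order. Heat minus control became 1.96 for Sb01g021320.1, 1.67 for Sb03g032380.1, 1.31 for Sb03g032380.2 and 1.13 for Sb09g027110.1, and combined minus drought -0.96 for Sb01g021320.1 and -0.86 for Sb03g032380.1. The count of ABA transcripts lower under heat went from 1 to 0. Normexp moved the median of all transcripts by 0.43 for heat minus control, and median scaling moved it by 0.12.

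With the array position as a factor, heat minus control became 0.66 for Sb01g021320.1, 1.64 for Sb03g032380.1 and 0.37 for Sb03g032380.2. Combined minus control became 5.63 for Sb03g032380.1 and 10.61 for Sb09g027110.1. Combined minus drought became -2.02 for Sb01g021320.1, 0.19 for Sb03g032380.1 and 1.42 for Sb09g027110.1. The calls between combined stress and drought fell to 0 higher for the other LEA list and 0 higher and 0 lower for the ABA list, and the ABA count lower under heat to 0. Quantile normalization gave -0.46 for Sb09g027110.1 and -0.52 for Sb09g027110.2, combined minus drought, both of opposite sign to the main values, and 1 LEA transcript higher and 1 lower.

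With the replicate block, 4 of the other LEA transcripts were higher and 2 lower between combined stress and drought. It moved no other count of the LEA and ABA lists by over 1.5 times, and left the members' mean differences as they were, at -3.00 for Sb01g021320.1. Over all transcripts the calls for drought minus control went from 947 higher and 171 lower to 1556 and 678, those for combined minus heat from 752 and 264 to 1700 and 1065, and those for the departure from the sum of single treatments from 0 and 0 to 2 and 1. The replicates share slides, though 1 of the 18 pairs was correlated below 0.1.

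Leaving out each replicate in turn gave 0 to 3 LEA transcripts higher and 0 to 0 lower between combined stress and drought, and 4 to 8 higher under heat. For the ABA list it gave 0 to 4 higher and 0 to 3 lower between combined stress and drought, and 7 to 10 higher and 0 to 1 lower under heat. Sb09g027110.2 ran from -0.12 to 0.35 for combined minus drought and from -0.32 to 0.72 for heat minus control. The members' combined minus drought differences ran from -3.20 to -2.83 for Sb01g021320.1, from -2.13 to -1.66 for Sb03g032380.1, from -2.51 to -1.86 for Sb03g032380.2 and from 0.00 to 0.38 for Sb09g027110.1. The main fit made 28 calls for single transcripts of the LEA and ABA lists, between combined stress and drought or under heat. Of these, 15 were lost with the position as a factor, 3 with normexp and 1 with quantile normalization. Leaving out 1 replicate at a time ended 24 of 84 calls. The limit of detection sets what can be said of Sb01g021320.1 and Sb03g032380.1 outside drought.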

Other observations

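Transcripts annotated to the LEA family also stood in the part of the heat list that was read. SAG21, Sb03g012940.1, read -5.64, -5.10 and -5.08 in control, 1.45, 2.51 and 2.55 under heat and 3.05, 2.57 and 2.26 in combined stress, so that heat lay 7.44 ± 0.31 (SD, n = 3) above control. In drought its arrays read -2.03, -4.61 and 0.83, so that replicates of 1 group lay far apart. GEA6, Sb09g016810.1, lay 2.23 ± 0.16 higher under heat than in control. It rose by 2.14 ± 0.18 between drought and combined stress (limma adjusted p = 3.1e-05), and its difference of drought from control was -0.35 ± 0.13 (0.275). Another SAG21 transcript, Sb01g033070.1, had a difference of heat from control of -3.17 ± 0.31. These 3 were taken for their place in the heat list, so their values under heat are a description with no test.

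Genes known from seeds stood among the drought transcripts as the LEA genes do. OLEO1 (Sb01g050670.1), an oil body protein, had no detected control array, and its drought arrays were at least 154-fold brighter. For the storage protein PAP85 (Sb01g012640.1) the bound was at least 142-fold. Between drought and combined stress they differed by -1.0 ± 0.78 and -1.51 ± 0.70 (SD, n = 3; limma adjusted p = 0.239 and 0.296), neither past the threshold. The oleosin Sb10g017780.1 went the other way, at 0.87 ± 1.52 (adjusted p = 0.295), also not past the threshold. Its drought arrays lay 2.28 ± 1.30 above control. All of these seed transcripts were taken from the drought list, so their differences of drought from control are a description with no test.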
